A study of Mus musculus with 8 samples.

Results

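Hox genes encode the homeodomain transcription factors that give cells their position along the body axis, and 34 of them were measured in dermal fibroblasts from young and old mice. They were taken from the platform annotation as the genes whose symbol is Hoxa, Hoxb, Hoxc or Hoxd followed by a number, on probe sets with a single symbol, and they make up 34 of the 17097 genes measured. The HoxA cluster gave 9 genes, HoxB 10, HoxC 6 and HoxD 9. RefSeq lists 39 such mouse genes, and the other 5 were not analysed here. The cells came from the skin of male C57Bl/6 mice without its subdermis and were sorted by flow cytometry for Pdgfra and CD34 and against CD45, CD117, CD24, CD31 and EpCam. The 4 young mice were 2 months old and the 4 old mice 18 months old, each with 1 array from 5000 sorted cells, and no other treatment or allele is given for either group. The body site of the skin is not given in the sources used here. In such sorted samples, fewer cells of a type and less RNA per cell cannot be told apart.

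Mammalian Hox genes lie in 4 clusters, and a gene's place in its cluster follows its place of action along the body: low paralogue numbers act toward the head and high numbers toward the tail and the ends of the limbs. The factors bind DNA together with Pbx and Meis proteins, while Polycomb complexes keep silent, and Trithorax complexes keep active, the genes set in the embryo. Adult skin fibroblasts keep a Hox pattern that differs between body sites, and it is known as their positional memory.

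Each value below is a log2 array signal on the scale of RMA, a method that corrects for background, gives all arrays one distribution and combines a set's probes into 1 value. Probe sets differ in affinity, so signals were not ranked between genes; they were only set against 2 reference levels. The first, 5.71, is the median of all genes' means. The second, 7.20, is the highest value of the 23 non-specific control probe sets on any array, whose median was 3.91. A group mean above 5.71 was found for 11 Hox genes: Hoxa7, Hoxa9, Hoxa13, Hoxb2, Hoxc4, Hoxc5, Hoxc8, Hoxc9, Hoxc10, Hoxd8 and Hoxd9. By comparison 48.9% of all genes lay below 5.71 in both groups, against 23 of the 34 Hox genes. Signals above 7.20 on every array were found for 4 genes, Hoxa9, Hoxc9, Hoxc10 and Hoxd9, which belong to paralogue groups 9 and 10. The means over all 8 mice of Hoxa10, Hoxd1 and Hoxd10 were under the control median of 3.91 (the old mean of Hoxa10 alone was 3.97), so a change in them may be hidden by background.

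**Figure D1:**
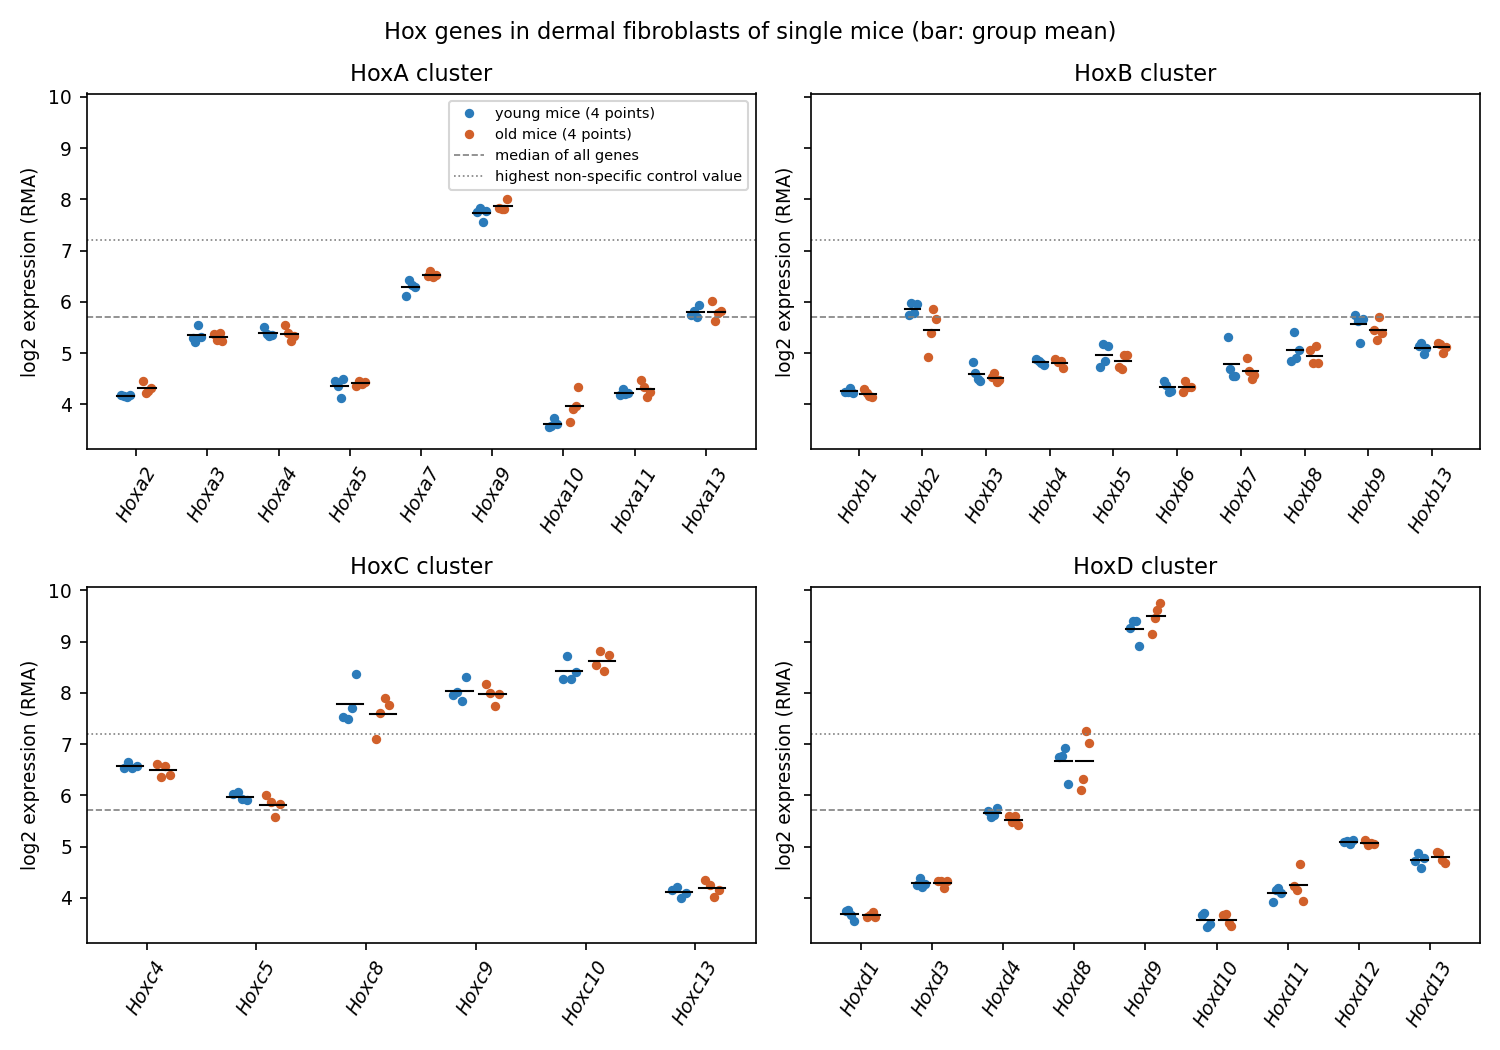
Log2 expression of the 34 Hox genes in each mouse, by cluster, with young mice in blue, old mice in orange and bars for the group means; the dashed line is the median of all genes (5.71) and the dotted line the highest non-specific control value (7.20). Young and old points overlap for every gene except Hoxa2 and Hoxa7. Single mice can lie far apart, from 6.10 to 7.25 for Hoxd8 and from 7.10 to 8.37 for Hoxc8. Hoxa9, Hoxc9, Hoxc10 and Hoxd9 stay above the dotted line in all 8 mice.

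Between young and old fibroblasts the Hox genes changed about as much as genes in general, and background may hide changes in the 23 dimmer ones. None of the 34 genes passed limma's threshold (adjusted p under 0.05 over all genes), while 3.97% of all genes passed, and the lowest adjusted p of a Hox gene was 0.153. A share that low gives few calls in a list of 34. At an unadjusted p under 0.05 there were 3 Hox genes, with Hoxa7 and Hoxa10 higher and Hoxb2 lower in old mice; among all genes 15.1% reached that level, 6.80% higher and 8.28% lower, so 3 of 34 is not above the background. Of the 34 changes, 17 were upward and 17 downward, with a median of -0.0025, beside 0.01 over all genes. The median size of a change was 0.081, beside 0.0825 over all genes. For the 11 Hox genes with a group mean above 5.71 it was 0.1575, beside 0.135 for all such genes. Young and old mice did not overlap for 2 of the 34, Hoxa2 and Hoxa7, beside 9.70% of all genes.

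A missed threshold does not show that levels were equal, and the intervals say how large a change could still be. The 95% interval of the change lay within 2-fold in both directions for 34 of 34 Hox genes. It lay within 1.5-fold (0.58 on the log2 scale) for 31 of them, beside 87% of all genes. Among Hox genes with a group mean above 5.71 this held for 9 of 11, beside 77.2% of all such genes. The other 22 were dimmer genes, in which background may hide a change, so their narrow intervals do not bound the change in RNA. Hoxd8 and Hoxd9 ended just inside the 1.5-fold bound. The exceptions were Hoxa10, whose interval reached 0.63, Hoxb2, which reached -0.80, and Hoxc8, which reached -0.68. At each gene's own error, a change between 0.24 (Hoxd12) and 1.08 (Hoxd8) would have been needed to pass, with a median of 0.36.

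**Figure D2:**
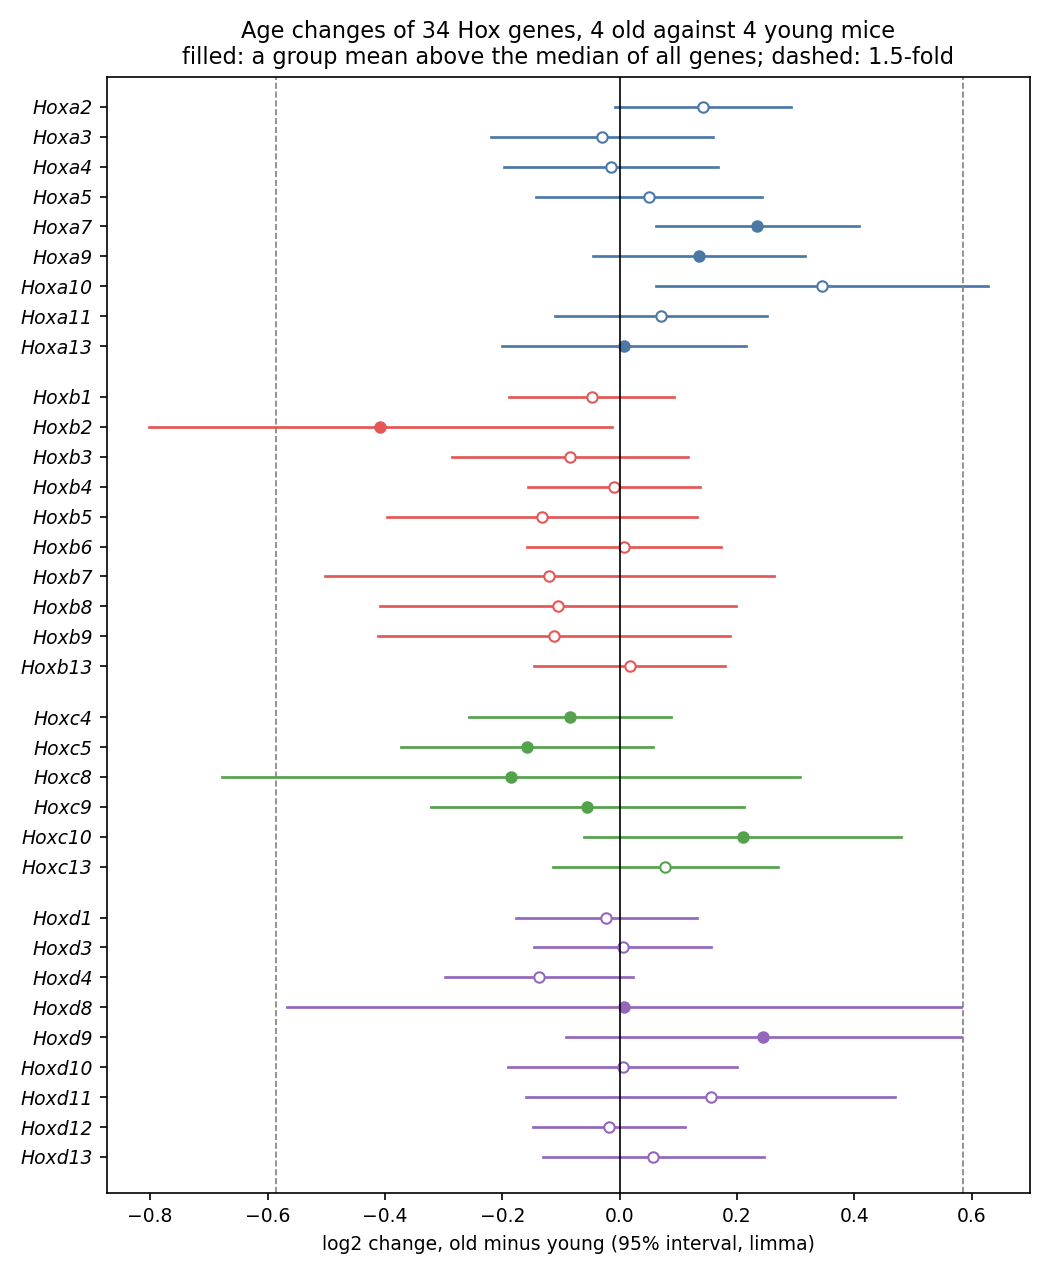
Log2 change of each Hox gene, old minus young, with its 95% interval from limma (4 against 4 mice), coloured by cluster; filled points have a group mean above the median of all genes and dashed lines mark 1.5-fold. All intervals cross 0 except those of Hoxa7, Hoxa10 and Hoxb2, and only those of Hoxa10, Hoxb2 and Hoxc8 cross a dashed line.

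In the HoxA cluster 7 of 9 genes were higher in old mice and 2 lower, with a median change of 0.07 and none past the threshold. Hoxa7, a gene of the neck and chest region, had 6.12, 6.43, 6.32 and 6.29 in the 4 young mice and 6.50, 6.60, 6.48 and 6.52 in the 4 old mice. All 4 old mice lay above all 4 young mice. The change was 0.24 ± 0.08 (SE, n = 4 against 4), or 1.18-fold with a 95% interval from 1.04 to 1.33 (limma adjusted p = 0.153). Hoxa9, which acts in the lower trunk and in blood stem cells, had 7.75, 7.84, 7.56 and 7.77 in young mice and 7.83, 7.81, 7.82 and 8.00 in old mice. The groups overlapped, and the change of 0.14 ± 0.08 did not pass (limma adjusted p = 0.509); it was 0.078 without young replicate 3. Hoxa13, a gene of the digits and the urogenital tract, had 5.75, 5.83, 5.70 and 5.93 in young and 6.01, 5.62, 5.78 and 5.83 in old mice, a change of 0.0075 ± 0.09. Its old mice spread over the whole young range and beyond it.

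None of the dim members of the cluster passed. Hoxa2, which patterns the second pharyngeal arch, had 4.15 to 4.19 in young and 4.23 to 4.45 in old mice, so that the groups did not overlap, with a change of 0.14 ± 0.07 (limma adjusted p = 0.358). Hoxa10, named here because of its unadjusted p of 0.0217, is a gene of the lumbar spine and the uterus. It had 3.56, 3.58, 3.73 and 3.62 in young and 3.66, 3.91, 3.97 and 4.33 in old mice (0.35 ± 0.13, limma adjusted p = 0.21), the largest change in the cluster, and 0.22 without old replicate 4. Old replicate 4 was the highest and old replicate 1 lay within the young range, and all young values were under the control median of 3.91. Hoxa4, Hoxa5 and Hoxa11 had changes between -0.015 and 0.07. Hoxa3, a gene of the pharynx and thymus, was read by 4 probe sets that did not move alike: the brightest changed by -0.03 and another of nearly the same mean (5.30 beside 5.33) by 0.28, with an adjusted p of 0.269 in limma's fit over all probe sets.

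In the HoxB cluster 8 of 10 genes were lower in old mice and 2 higher, with a median change of -0.095 and none past the threshold. Hoxb2, which acts in the hindbrain, was the only member of the cluster with a group mean above 5.71. It had 5.75, 5.97, 5.79 and 5.95 in the young mice and 4.92, 5.39, 5.86 and 5.66 in the old mice. Old replicates 1 and 2 lay well below the young mice, old replicate 4 lay just below them, and old replicate 3 lay within their range. The change was -0.41 ± 0.18 (SE), or 0.754-fold with a 95% interval from 0.574 to 0.991 (limma adjusted p = 0.307). Without old replicate 1 it was -0.23. Hoxb5, Hoxb7, Hoxb8 and Hoxb9 had changes between -0.13 and -0.11, and Hoxb1, Hoxb3, Hoxb4, Hoxb6 and Hoxb13 between -0.085 and 0.0175. Young replicate 1 stood above the other 7 mice for Hoxb7, at 5.32 against 4.49 to 4.91.

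In the HoxC cluster 5 of 6 genes had a group mean above 5.71, and 4 of the 6 were lower and 2 higher in old mice (median -0.07). Hoxc4 and Hoxc5 belong to the neck and upper chest. Hoxc4 had 6.53, 6.65, 6.54 and 6.57 in young and 6.61, 6.36, 6.58 and 6.40 in old mice (-0.085 ± 0.08), and Hoxc5 had 6.02, 6.06, 5.92 and 5.91 in young and 6.01, 5.87, 5.57 and 5.83 in old mice (-0.16 ± 0.10). In both the groups overlapped. The change of Hoxc4 was -0.0425 without old replicate 2 and -0.056 without old replicate 4, that of Hoxc5 was -0.074 without old replicate 3, and the second probe set of Hoxc5 changed by -0.29.

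Hoxc8, a gene of the chest vertebrae and forelimb motor neurons, varied more from mouse to mouse than with age. That was not particular to it: the median SD exceeded the median size of a change over the 34 genes (0.118 and 0.081). The same held over all genes (0.136 and 0.0825). It had 7.53, 7.49, 7.71 and 8.37 in young and 7.10, 7.60, 7.89 and 7.77 in old mice. The highest and the lowest mouse were young replicate 4 and old replicate 1, and the change was -0.19 ± 0.22 (SE; limma adjusted p = 0.807). Hoxc9 had 7.95, 8.02, 7.84 and 8.30 in young and 8.18, 8.00, 7.74 and 7.97 in old mice, a change of -0.055 ± 0.12. Hoxc10, a gene of the lower back and hindlimb, had 8.28, 8.72, 8.27 and 8.41 in young and 8.55, 8.81, 8.43 and 8.73 in old mice. Its change was 0.21 ± 0.12, with a 95% interval from 0.959-fold to 1.40-fold (limma adjusted p = 0.488), and young replicate 2 lay among the old mice. Hoxc13, a gene of hair and nail keratinization, changed by 0.08 ± 0.09 at levels between 4.00 and 4.34.

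In the HoxD cluster 6 of 9 genes were higher and 3 lower in old mice, with a median change of 0.005. Its bright members were the neighbours Hoxd9 and Hoxd8, genes of the trunk and limb buds. Hoxd9 had 9.27, 9.41, 9.41 and 8.91 in young and 9.14, 9.47, 9.62 and 9.75 in old mice, and its change was 0.25 ± 0.15 (SE; limma adjusted p = 0.525). It was 0.13 without young replicate 4 and 0.16 without old replicate 4. Hoxd8 had 6.75, 6.76, 6.92 and 6.22 in young and 6.10, 6.31, 7.25 and 7.02 in old mice, a change of 0.0075 ± 0.26. In both genes, by these probe sets, young replicate 4 was the lowest young mouse, old replicate 1 the lowest old mouse, and old replicates 3 and 4 the highest of the old mice. The Polycomb genes Ring1 and Kdm2b had the same lowest and highest mice, so this order was not particular to the HoxD pair. The other probe set of Hoxd8 also had old replicates 3 and 4 above old replicates 1 and 2 (5.74 and 5.58 against 5.12 and 5.20), but young replicate 4 was its highest young mouse, at 5.79, so the probe sets disagree on that mouse. By its name suffix, the brighter set may also bind transcripts of other genes. Of the other members, Hoxd4 changed by -0.14 ± 0.07, Hoxd11 by 0.16 ± 0.14, and Hoxd1, Hoxd3, Hoxd10, Hoxd12 and Hoxd13 by -0.02 to 0.06. Hoxd13, the digit gene, had a second probe set that changed by 0.08.

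The 250 bases upstream of the start of Hoxd9, Hoxd8 and Hoxa7 are shown. The neighbours Hoxd9 and Hoxd8 shared their lowest young and lowest old mouse on the probe sets used, and Hoxa7 had the smallest p of the 34. These sequences come from RefSeq (GRCm38.p6), which gave a promoter for 21 of the 34 genes, and lie at chr2:74697513-74697762 (plus strand), chr2:74704365-74704614 (plus strand) and chr6:52218574-52218823 (minus strand). Capitals mark matches on either strand to 5 motifs: TATAAA of the core promoter, CCAAT of many proximal promoters, TAATTA as a homeodomain core, TGATTNAT as a composite of Pbx and Hox, and AGGTCA as the repeat unit of retinoid receptor sites.
Hoxd9: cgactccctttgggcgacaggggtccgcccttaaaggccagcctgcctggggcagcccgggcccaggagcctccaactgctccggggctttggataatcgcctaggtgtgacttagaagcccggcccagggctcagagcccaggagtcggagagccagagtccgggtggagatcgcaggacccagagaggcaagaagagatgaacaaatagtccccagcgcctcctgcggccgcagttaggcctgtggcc
Hoxd8: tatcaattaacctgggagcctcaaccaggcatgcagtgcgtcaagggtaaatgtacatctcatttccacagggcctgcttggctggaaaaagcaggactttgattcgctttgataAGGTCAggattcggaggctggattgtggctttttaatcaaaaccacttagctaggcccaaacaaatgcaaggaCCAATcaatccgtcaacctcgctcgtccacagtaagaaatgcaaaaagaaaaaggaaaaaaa
Hoxa7: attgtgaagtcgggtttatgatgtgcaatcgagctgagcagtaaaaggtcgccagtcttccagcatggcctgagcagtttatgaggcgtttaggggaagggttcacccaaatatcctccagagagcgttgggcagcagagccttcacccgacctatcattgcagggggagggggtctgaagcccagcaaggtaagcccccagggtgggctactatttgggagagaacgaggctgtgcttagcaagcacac
The Hoxd8 window held 1 CCAAT match and 1 AGGTCA match that do not overlap, and the windows of Hoxd9 and Hoxa7 held none of the 5 motifs. Of the 23 windows available for the Hox genes, 13 held CCAAT, 6 AGGTCA, 4 TATAAA, 2 TAATTA and 2 TGATTNAT. Among all 32841 promoter windows of that length, 33.9% held CCAAT, 14.0% AGGTCA, 12.4% TATAAA, 4.84% TAATTA and 2.83% TGATTNAT. The Hoxd9 window held 13 CG pairs, the Hoxd8 window 6 and the Hoxa7 window 7, beside a median of 6.

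The numbers in the sample titles fall into 2 runs, each with 2 young and 2 old mice, which is the makeup stated for a collection day; whether the runs are the days is not stated. Replicates 1 and 2 of each age belong to the first run. The age change of Hoxd8 was -0.55 in the first run and 0.57 in the second, and its other probe set gave -0.32 and 0.14. That of Hoxd9 was -0.035 and 0.53, and that of Hoxb2 was -0.71 and -0.11. In old mice the second run was higher than the first by 0.93 for Hoxd8, 0.61 for Hoxb2 and 0.38 for Hoxd9, while in young mice the differences were -0.19, 0.01 and -0.18. Tested as an interaction of age and run, Hoxd8 had an unadjusted p of 0.00533 and a limma adjusted p of 0.537, and none of the 34 passed, as 0.00% of all genes did, so that count says nothing about the Hox genes. Hoxb2 was the other member under an unadjusted 0.05, so 2 of 34 reached it, beside 7.33% of all genes. For Hoxa7 the changes within the runs were 0.28 and 0.20, and for Hoxc10 0.18 and 0.24. Hoxc8 was higher in the second run in both ages, by 0.53 in young and 0.48 in old mice. The changes had opposite signs in the 2 runs for 12 of the 34 Hox genes, beside 40.4% of all genes.

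**Figure D3:**
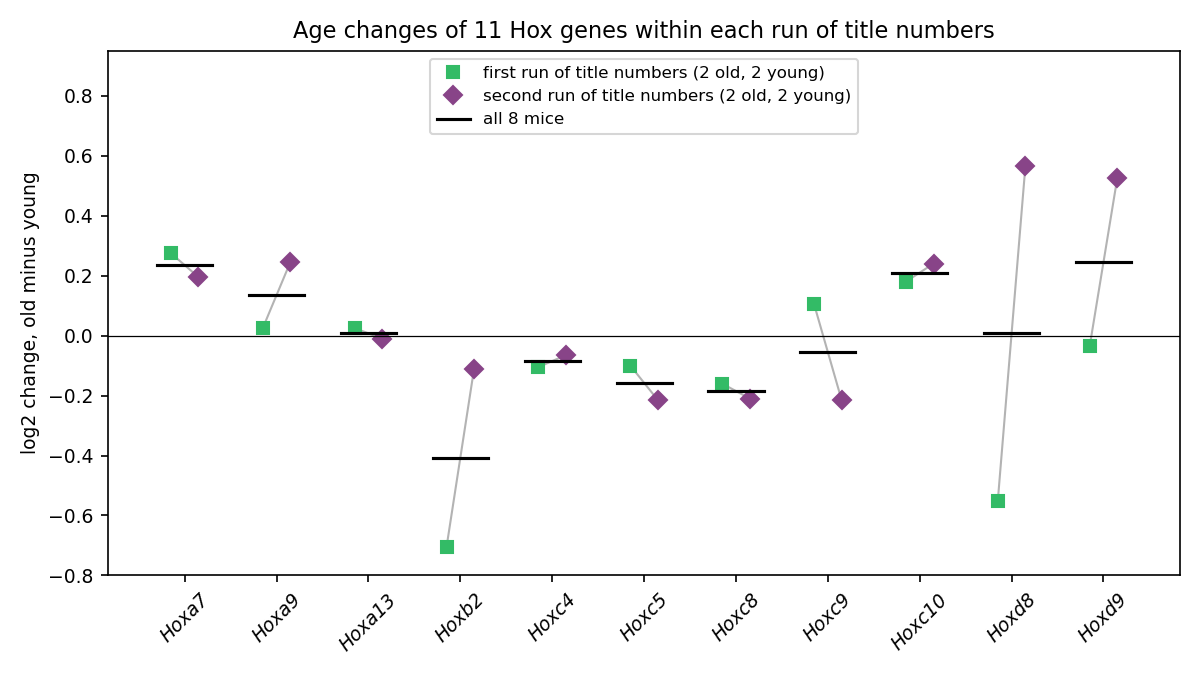
Log2 change, old minus young, of the 11 Hox genes with a group mean above the median of all genes, within the first run of title numbers (squares), within the second (diamonds) and over all 8 mice (bars). Hoxd8 goes from -0.55 to 0.57 between the runs, and it is 1 of 4 genes (with Hoxa13, Hoxc9 and Hoxd9) whose sign differs between them.

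By place along the body, 2 of 7 anterior genes (paralogues 1 to 3) were higher in old mice, 4 of 13 central genes (4 to 8) and 11 of 14 posterior genes (9 to 13). The medians were -0.03, -0.085 and 0.064, against 0.01 over all genes, of which 53.1% were higher in old mice. None of the 34 genes behind these counts passed the threshold. Only 1 anterior, 5 central and 5 posterior genes had a group mean above 5.71. Changes as small as 0.005 (Hoxd10) were counted as higher. The genes of a class share mice and clusters, so the counts are descriptive. Between mice of one age, the median SD of the 34 genes was 0.118, beside 0.136 over all genes, and that of the 11 brighter ones was 0.189, beside 0.172 for all genes above 5.71. Over these 11 genes young replicate 2 lay above the mean of its age in 9 genes and young replicate 3 below it in 8, but by little: the median deviation from the mean of its age ran from -0.065 (young replicate 3) to 0.10 (old replicate 4).

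The partners of Hox proteins on DNA did not pass either. Of 9 listed Pbx, Meis and Pknox genes 8 were measured, 0 passed limma's threshold, and 2 were higher at an unadjusted p under 0.05 (median 0.11), beside 3.97% of all genes past the threshold and 6.80% higher at the unadjusted level. These were Pknox1, with 0.30 ± 0.12 (limma adjusted p = 0.28), and Pbx3, with 0.22 ± 0.09 (limma adjusted p = 0.284). The 3 probe sets of Pknox1 changed by 0.105 to 0.30. Meis2 and Meis1, whose products bind beside Hox and Pbx, changed by -0.24 ± 0.15 and 0.03 ± 0.16.

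Among the repressors of Hox genes, 1 of 26 measured Polycomb genes rose and 1 fell, beside 1.82% and 2.15% of all genes. At an unadjusted p under 0.05 in limma 4 were higher (Ezh2, Pcgf5, Cbx7 and Kdm2b) and 1 lower (Jarid2), beside 6.80% and 8.28% of all genes. Ezh2, the enzyme that methylates lysine on histone H3 in the silencing complex, had 5.23, 5.21, 5.36 and 4.99 in young and 5.62, 5.71, 5.82 and 5.50 in old mice. The groups did not overlap, and the gene rose by 0.47 ± 0.10 (SE; limma adjusted p = 0.0304), with both group means below the median of all genes. Jarid2, an accessory subunit of the same complex, had 9.72, 9.52, 9.64 and 9.68 in young and 9.31, 9.42, 9.13 and 9.33 in old mice and fell by 0.34 ± 0.08 (limma adjusted p = 0.0476). When single mice were left out, Ezh2 kept its call in 2 of 8 fits and missed the threshold when young replicate 1, 2 or 4 or old replicate 1, 2 or 3 was absent (limma adjusted p up to 0.0933). Jarid2 missed it in each of the 8 (limma adjusted p up to 0.122) and, these included, in 14 of 18 other settings, and its 3 probe sets changed by -0.34 to -0.045. The median of the list was 0.03, and Eed and Suz12, the other core subunits, changed by -0.16 ± 0.19 and -0.01 ± 0.11.

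Of 12 measured Trithorax and demethylase genes 0 passed limma's threshold, and 3 were lower at an unadjusted p under 0.05 (median -0.13), beside 3.97% of all genes past the threshold and 8.28% lower at the unadjusted level. Those with the smallest p were Cxxc1, a subunit of a complex that methylates active promoters, with -0.26 ± 0.07 (limma adjusted p = 0.0912), and Kdm6a, which removes the Polycomb mark, with -0.40 ± 0.12 (limma adjusted p = 0.12). Of 8 upstream regulators of Hox expression 0 passed, with 2 lower at an unadjusted p under 0.05, against the same shares. Rarg, a retinoic acid receptor, changed by -0.34 ± 0.11 (limma adjusted p = 0.159). Egr2, which switches on Hoxb2 in the hindbrain and is also an immediate early gene, had 8.20, 8.16, 8.72 and 8.60 in young and 7.25, 7.32, 8.25 and 8.35 in old mice. Both ages were lower in the first run of title numbers; the change was -0.63 ± 0.26 (limma adjusted p = 0.291), and it passed with the run as a block (limma adjusted p = 0.0143).

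Transcripts that run through the clusters and genes beside them were also read. Of 20 listed noncoding and antisense transcripts 5 were measured, each below 5.71 in both groups, and 0 passed (0 also at an unadjusted p under 0.05 in limma); Hoxb5os changed by 0.22 ± 0.10 and Haglr by -0.11 ± 0.08. Of 15 measured genes flanking the clusters 1 rose and 0 fell, beside 1.82% and 2.15% of all genes. This was Skap2, an adaptor protein of the actin cytoskeleton whose gene lies beside the HoxA cluster in RefSeq. It had 6.46, 6.16, 6.20 and 6.46 in young and 7.16, 7.08, 7.40 and 7.60 in old mice, with no overlap. Skap2 rose by 0.99 ± 0.13 (SE), or 1.99-fold (limma adjusted p = 0.00282), by 0.81 and 1.17 within the runs, and its other probe set changed by 0.31. Snx10, which also flanks the cluster, changed by 0.27 ± 0.07 (limma adjusted p = 0.0783), and Evx1, beside Hoxa13, by -0.05 ± 0.07. The largest fall in the list was that of Mtx2, at -0.41 ± 0.19 (limma adjusted p = 0.356), and Hibadh changed by -0.255 ± 0.21. At an unadjusted p under 0.05 in limma 2 of the 15 were higher (Skap2 and Snx10) and 0 lower, beside 6.80% and 8.28% of all genes.

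**Figure D4:**
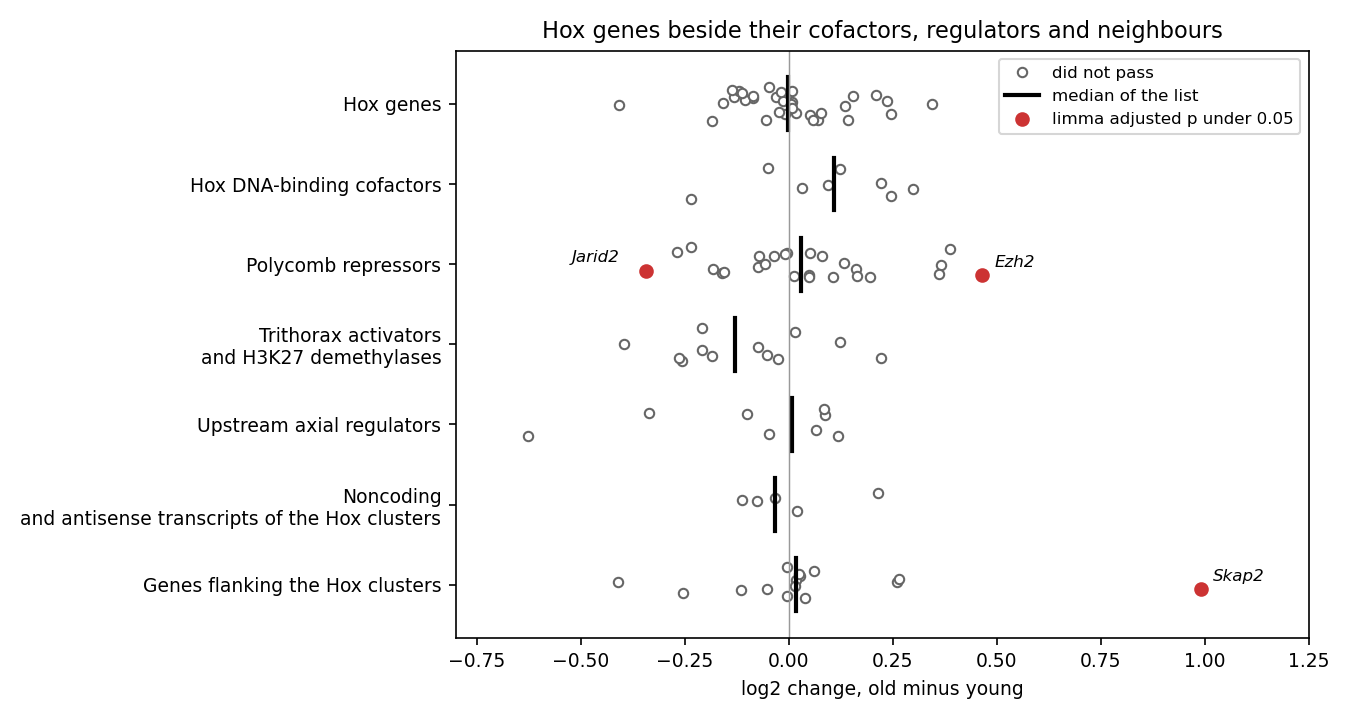
Log2 change, old minus young, of each Hox gene and of each measured gene of 6 lists; red points passed limma's threshold and black bars are list medians. Skap2 and Ezh2 lie to the right at 0.99 and 0.47 and Jarid2 to the left at -0.34, while the 34 Hox genes lie between -0.41 and 0.35.

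The sorted cells carried fibroblast signals in both ages, such as Cd34 at 10.82 ± 0.06 in young and 11.01 ± 0.04 in old mice (SD, n = 4), and 8 of 9 listed fibroblast markers lay above 5.71; 1 of the 9, Thy1, fell, and at an unadjusted p under 0.05 there were 3 lower (Thy1, Pdgfra and Col1a2) and 1 higher (Cd34). Pdgfra, used in the sort, lay below it on its single probe set, at 5.06 ± 0.25 and 4.47 ± 0.28. The leukocyte marker Ptprc (CD45) lay below the control median in both ages, at 3.43 and 3.51. Of 9 keratinocyte markers 5 lay above 5.71 and 0 passed limma's test, with 2 higher at an unadjusted 0.05 (Krt5 and Epcam), and a log2 summed level of 9.15 to 9.81 in young and 9.35 to 10.65 in old mice. Krt5 changed by 1.12 and was highest in old replicates 3 and 4, at 8.78 and 8.43. Epcam, which was sorted against, lay below 5.71 in both ages and changed by 0.40 without overlap (limma adjusted p = 0.0584). Its other probe set changed by 0.06. Cdh1 and Trp63 were lower, by -0.03 and -0.33, but the 4 probe sets of Trp63 changed by -0.33 to 0.13. Of 6 melanocyte markers 1 passed, Mlana, and the summed level was 8.41 to 8.89 in young and 9.43 to 10.49 in old mice. That sum moved with Mlana (6.23 and 9.10 in young and old) and Mitf (7.69 and 8.25, limma adjusted p = 0.231), while Pmel, Tyr, Tyrp1 and Dct lay below 5.71 in both ages with changes between -0.085 and 0.12. The other probe set of Mitf changed by -0.04. Of 6 dermal papilla markers 1 fell, Crabp1, and the summed level was lower in old mice, at 9.89 to 10.56 against 11.59 to 12.06. Most of that sum was Crabp1 itself, at 11.57 in young and 9.24 in old mice; Bmp4 and Lef1 changed by -0.39 and -0.32 without passing, and Corin, Alx4 and Sox2 by -0.035 to 0.0125. Of 6 pericyte and smooth muscle markers 1 rose, Kcnj8, with a summed level of 8.47 to 8.56 in young and 8.71 to 9.07 in old mice, while the other 5 changed by -0.10 to 0.09. Of the endothelial, leukocyte, Schwann cell, skeletal muscle and adipocyte markers 0 passed limma's test, with 1 endothelial and 1 leukocyte marker higher at an unadjusted 0.05. Set beside these marker counts, 1.82% of all genes rose and 2.15% fell past the adjusted threshold. Without adjustment, 6.80% of all genes were higher in old mice and 8.28% lower. The part of these marker changes in the Hox values was not tested.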

How the data were processed

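Expression was measured on 8 Affymetrix arrays, 1 per mouse. The deposited log2 values per probe set were made by the authors with RMA (affy), per the submitters' processing notes, which name no version. Of 45141 probe sets, 28898 had 1 gene symbol in the platform annotation. Each of 17097 genes was represented by its brightest probe set (mean of the 8 arrays); 42 probe sets read the 34 Hox genes, 6 of them by several. Array medians were 5.06 to 5.14. Old and young mice were compared by lmFit and eBayes of limma 3.58.1 under R 4.3.3 (2-sided, Benjamini-Hochberg over all genes, adjusted p under 0.05), and every adjusted p is from limma. The code was tested on simulated arrays. Each mouse is a separate animal; their number limits the precision.

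Values per mouse were given for Hox genes past the threshold, those whose groups did not overlap and, of those with a group mean above 5.71, the 15 with the largest changes (only 11 qualified). From each list, genes past the threshold or else the 2 smallest p were named; further genes were chosen after their values were seen. Members and lists were chosen with earlier results of these data known. Alternatives changed the prior, array weights, filter, probe set rule, scaling, run block, threshold and mice.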

Additional observations from a re-analysis of the deposited data

Results flagged for a closer look

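In 2 of 90 groups of 4 mice (34 Hox genes and 11 listed genes, young and old), 1 mouse lay far from the other 3 by Dixon's ratio, and chance gives about 1 in 20. For Hoxa9, old replicate 4 had 8.00 and the other old mice 7.81 to 7.83 (ratio 0.895). For Hoxd3, old replicate 3 had 4.19 and the other old mice 4.32 to 4.33 (ratio 0.929).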

How the results depend on the processing

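In 19 of 19 settings, the main one and leaving out each mouse in turn included, 0 Hox genes passed limma's adjusted p of 0.05; the lowest adjusted p in a setting ran from 0.0522 (Hoxa10, array weights) to 0.311, and 1 to 5 genes had an unadjusted p under 0.05. In the main setting none passed at 0.1 either, but Hoxa10 was under 0.1 with array weights and without old replicate 1 (0.0648). In a fit chosen after seeing the data, none of the 42 probe sets passed at 0.05. The median Hox change stayed between -0.03 and 0.02. Directions of small changes turned: Hoxa13 had -0.019 with array weights and -0.059 to 0.071 without single mice, Hoxc8 0.034 and -0.29 to 0.013, Hoxc9 -0.12 to 0.036 without single mice, and Hoxd8 -0.041 with the mean of probe sets and -0.19 to 0.20 without single mice; Kdm6a had 0.0275 on its dimmest probe set above 5.71. Of the listed cofactors, regulators and neighbours 3 passed in the main setting, 1 with dim genes left out (where Ezh2 is not tested), 1 to 2 without single mice, and 5 at an adjusted p under 0.1. With array weights 4 passed, with the run as a block 4, and in the remaining settings 2 to 3. Skap2 passed in all 18 other settings. No paired analysis was possible because the titles number each mouse by itself. The causes were not tested.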
